A study of Mus musculus with 4 samples.

Results

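The Ly6 genes of mouse chromosome 15 were examined in T8 leukemia cells 1 day after transduction with a retrovirus. The 8 genes, Ly6a, Ly6c1, Ly6c2, Ly6d, Ly6e, Ly6g, Ly6i and Ly6k, were chosen by name from 55359 genes in the count table, knowing that several were higher in one group of these libraries. The difference between the groups is therefore given for them as a description. No p-value is printed for it, and calls among the members are no support for a direction. T8 is 1 preB-I leukemia line from 1 tumor of an Irf4-/- mouse, so both groups carry the same Irf4 deletion. EV-RV libraries came from T8 cells given a retrovirus that encodes GFP alone, and IRF4-RV libraries from T8 cells given a retrovirus for GFP and IRF4, a transcription factor of the B lineage. There were 2 libraries per group, which the series describes as biological replicates. The comparison asks what returning IRF4 did to RNA levels in leukemia cells that lacked it. The sources used here do not say whether GFP+ cells were sorted, and they give no age or sex of the donor animal.

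Ly6 proteins are small cell surface proteins of the Ly6/uPAR family. They share a cysteine-rich fold and are mostly held in the membrane by a glycosylphosphatidylinositol (GPI) anchor. Many are read out as surface antigens of blood cells: Sca-1 (Ly6a) on stem cells and activated lymphocytes, Ly6C on monocytes and other leukocytes, and Ly6G on neutrophils. Several members, Ly6a, Ly6c and Ly6e among them, are known to respond to interferon.

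The libraries held between 31230223 and 37817752 counts, so that 3 counts, the limit that a count of 0 allows, equal 0.0824 to 0.0952 CPM. CPM, the unit of level used here, is a gene's count per 1000000 counts of tested genes in its library, with that total multiplied by the TMM factor. Intervals and limits cover counting error only. Irf4, the gene the vector carries, was at 241.9 and 241 CPM in the EV-RV libraries and at 2822 and 2491 CPM in the IRF4-RV libraries. Both IRF4-RV libraries were thus far above both EV-RV libraries (log2 fold change 3.46, SE 0.0907), although counts per gene cannot tell vector RNA from RNA of the deleted allele. The B lineage genes Cd79a and Cd79b had between 9245 and 33036 counts in every library. Rag1 and Rag2 had at most 1 count per library. In bulk RNA, a higher level in every cell cannot be told apart from more cells that express the gene.

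Across the 14637 genes tested with edgeR's quasi-likelihood test, 29.7% were called at an FDR of 0.1. Of all tested genes, 16% were called higher and 13.7% lower in IRF4-RV, so that 53.8% of the calls were higher. With library sizes alone as scaling, 37.8% of the calls were higher. In 31.3% of the tested genes, both IRF4-RV libraries lay above both EV-RV libraries.

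The upstream DNA of the family shows how closely some of these genes are related. RefSeq's table for GRCm38.p6 matched 3 of the 8 members, Ly6c1, Ly6c2 and Ly6g, and 2 other genes of the cluster, Ly6a2 and Ly6f. The 250 bases before the annotated start are shown 5′ to 3′ on the strand of the gene, because Ly6c2 and Ly6a2 were nearly silent in EV-RV and present in IRF4-RV, whereas Ly6f was nearly silent in both. Capitals mark a run of 11 bases that all 5 windows share. The windows were chr15:75048838-75049087 for Ly6c1, chr15:75111972-75112221 for Ly6c2 and chr15:75135129-75135378 for Ly6a2, all on the minus strand. On the plus strand they were chr15:75155011-75155260 for Ly6g and chr15:75268171-75268420 for Ly6f. The last 21 bases of the Ly6g window lie inside the gene as GENCODE M21 annotates it.
Ly6c1: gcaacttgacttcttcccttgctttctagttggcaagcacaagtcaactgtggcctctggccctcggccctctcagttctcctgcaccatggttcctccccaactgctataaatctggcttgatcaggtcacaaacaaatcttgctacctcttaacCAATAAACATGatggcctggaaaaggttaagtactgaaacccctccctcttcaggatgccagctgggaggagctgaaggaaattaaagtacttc
Ly6c2: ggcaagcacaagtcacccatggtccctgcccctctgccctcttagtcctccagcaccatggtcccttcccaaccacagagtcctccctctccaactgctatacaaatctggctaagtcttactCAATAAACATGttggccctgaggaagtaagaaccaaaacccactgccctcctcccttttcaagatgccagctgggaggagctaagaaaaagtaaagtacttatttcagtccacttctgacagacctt
Ly6a2: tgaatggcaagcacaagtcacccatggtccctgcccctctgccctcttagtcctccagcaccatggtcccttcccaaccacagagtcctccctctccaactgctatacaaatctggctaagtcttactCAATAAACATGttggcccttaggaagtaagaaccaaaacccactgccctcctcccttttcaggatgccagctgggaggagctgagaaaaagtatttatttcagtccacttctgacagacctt
Ly6g: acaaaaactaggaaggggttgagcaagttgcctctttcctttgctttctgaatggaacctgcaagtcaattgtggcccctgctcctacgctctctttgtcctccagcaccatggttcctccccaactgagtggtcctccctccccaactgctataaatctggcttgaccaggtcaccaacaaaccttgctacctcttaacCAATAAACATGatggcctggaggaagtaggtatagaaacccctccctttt
Ly6f: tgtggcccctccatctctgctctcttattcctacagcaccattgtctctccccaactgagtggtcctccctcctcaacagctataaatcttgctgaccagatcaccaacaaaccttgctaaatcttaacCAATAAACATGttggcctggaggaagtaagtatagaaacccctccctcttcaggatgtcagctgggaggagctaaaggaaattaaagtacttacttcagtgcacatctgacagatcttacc

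The windows of Ly6c2 and Ly6a2 were identical at 241 of 255 aligned columns (94.5%), with gap columns counted as not identical. Between Ly6c1 and Ly6c2, whose coding bases are almost the same, they were identical at 164 of 284 columns (57.7%). The shared run begins 94 bases before the start of Ly6c1 and 127 before that of Ly6c2. These windows are thus offset, and gap columns lower their share. Ly6f and Ly6c2 shared 65.9% of columns. The capitalised run was found on either strand in 14 of 32851 upstream windows in the table (0.0426%), belonging to 12 genes, 5 of which are the genes shown. It is the longest exact run that a window of each of the 5 genes shares. The windows shown were chosen among the 8 of the cluster for the length of this run, so its rarity is only a description. Motifs were searched on both strands, with N standing for any base. An interferon-response core, GAAA and GAAA with 2 bases between, was found in 2.98% of all upstream windows. A composite site for ETS and IRF factors, GGAA and GAAA with 2 bases between, was found in 2.3% of them. These motifs cannot both match at the same position of a strand. A STAT site, TTC and GAA with 3 bases between, was found in 7.02%, and an AP-1 site, TGANTCA, in 6.75%. None of these 4 motifs occurred in the 8 windows that the table holds for the cluster. This says only that these letters are absent from 250 bases before the start.

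Ly6e was by far the most abundant member. The protein, known as thymic shared antigen 1, is widely expressed, takes part in placental development and acts on the entry of viruses into cells. Its level was 616.7 and 658 CPM in EV-RV and 1080 and 1047 CPM in IRF4-RV, from 20576, 20746, 36592 and 38106 counts. The groups did not overlap, and the difference was small beside that of the other members (log2 fold change 0.74, SE 0.0737). Ly6e held between 99.5% and 99.7% of the summed counts of the 8 genes in EV-RV and between 92.7% and 93.7% in IRF4-RV. Without Ly6e, the summed level of the other members was 1.71 and 3.27 CPM in EV-RV and 72.6 and 82.5 CPM in IRF4-RV.

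Ly6d marks lymphoid progenitors that are turning to the B lineage. It had 18 and 20 counts in EV-RV and 858 and 1032 counts in IRF4-RV (0.54 and 0.634 against 25.3 and 28.4 CPM). Replicates lay close together in each group and the groups were far apart (log2 fold change 5.51, SE 0.164). Ly6d lies at one end of the cluster on the minus strand (GRCm38, chr15:74762056-74763620). No stretch of 50 bases of its transcript occurs in a transcript of another gene.

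Ly6c1 and Ly6c2 both encode the Ly6C antigen of monocytes, plasma cells and memory T cells. Ly6c2 had 4 and 6 counts in EV-RV and 1104 and 1185 counts in IRF4-RV (0.12 and 0.19 against 32.6 and 32.6 CPM). This was the largest ratio among the members, 211-fold with a 95% counting interval of 115 to 441 (log2 fold change 7.69, SE 0.188). It rests on 4 and 6 counts in EV-RV, and the interval of Ly6g, 21 to 4740, reaches higher. By log2 fold change, Ly6c2 ranked 6 of the 14637 tested genes. Ly6c1 had 3 and 10 counts in EV-RV and 85 and 84 counts in IRF4-RV, a 12-fold ratio with an interval of 6.83 to 23 (log2 fold change 3.56, SE 0.487). Leaving out EV-RV replicate 2 gave a log2 fold change of 4.69, and leaving out EV-RV replicate 1 gave 2.90. In EV-RV the share of Ly6c1 in the pair had wide intervals, whereas in IRF4-RV it was a small minority. Ly6c1 made up 42.9% (exact binomial interval 9.9% to 81.6%) and 62.5% (35.4% to 84.8%) of the 7 and 16 counts of the pair in EV-RV. In IRF4-RV it made up 7.15% (5.75% to 8.76%) of 1189 counts and 6.62% (5.31% to 8.13%) of 1269 counts.

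The coding bases of Ly6c1 and Ly6c2 differ at 9 of 396 positions (97.7% identical), with 188 identical bases in a row at the longest. The first 150 coding bases are shown because 6 of the 9 differences lie there. Capitals mark the bases that differ. They come from GENCODE M21 transcripts of genes at chr15:75044018-75048830 and chr15:75108158-75111970 on GRCm38, both on the minus strand.
Ly6c1: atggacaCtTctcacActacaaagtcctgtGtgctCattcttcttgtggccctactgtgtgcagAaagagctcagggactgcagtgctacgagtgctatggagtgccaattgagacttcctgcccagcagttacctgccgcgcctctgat
Ly6c2: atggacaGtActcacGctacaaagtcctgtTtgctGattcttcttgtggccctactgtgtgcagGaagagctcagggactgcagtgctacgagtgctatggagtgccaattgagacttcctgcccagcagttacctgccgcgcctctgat

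A read that falls between such differences fits both genes. Of the distinct stretches of 75 bases in Ly6c1 transcripts, 19% occurred exactly in another gene, Ly6c2 or Ly6a, and 44.6% occurred in another member or Ly6a2 when 1 mismatch was allowed. For Ly6c2 the shares were 9.46% and 24.7%. Read length and the treatment of reads with several alignments are not given in the sources used here, so the split between Ly6c1 and Ly6c2 is uncertain, and how far Ly6c2 reads enter the Ly6c1 count was not tested. Their sum avoids the split: it was 7 and 16 counts in EV-RV and 1189 and 1269 counts in IRF4-RV (log2 fold change 6.61).

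**Figure D1:**
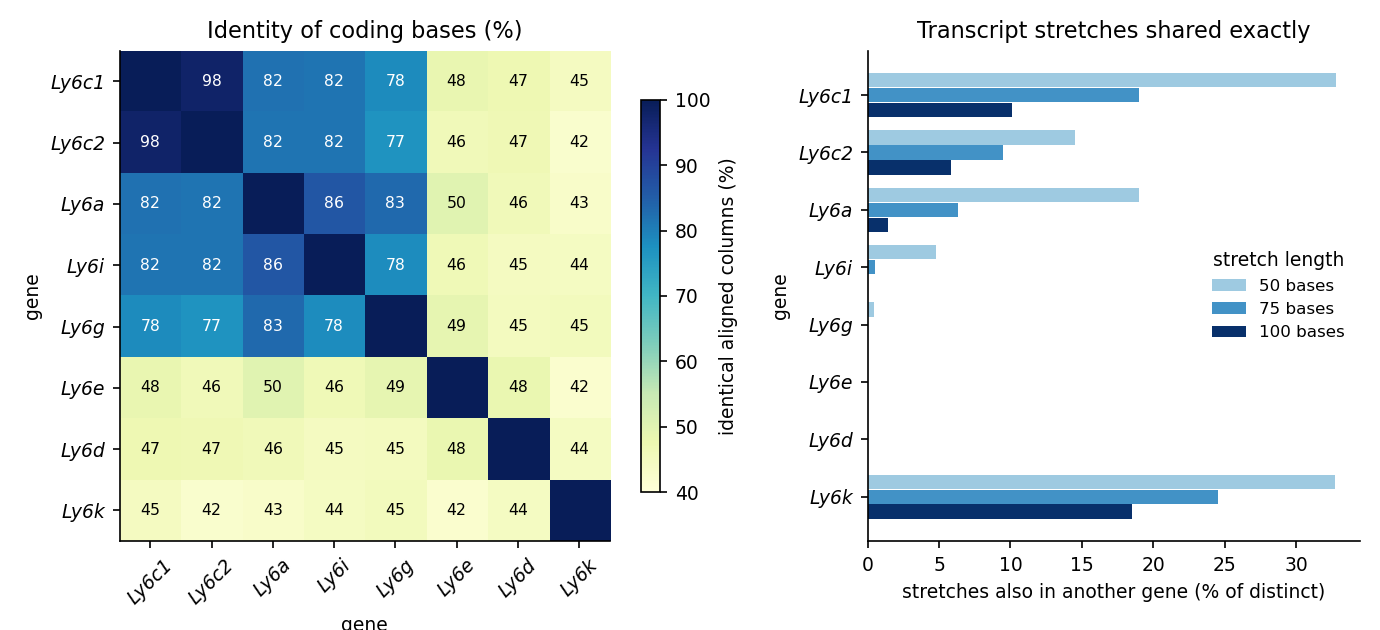
Left, identity of coding bases in percent for each pair of the 8 genes, using the most alike complete coding transcripts. Right, share of distinct stretches of 50, 75 or 100 bases of a gene's transcripts that also occur in a transcript of another gene. Ly6c1 and Ly6c2 stand out at 97.7% identity, Ly6a, Ly6i and Ly6g join them at 77 to 86.4%, and Ly6e and Ly6d share no stretch of 50 bases.

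Ly6a encodes Sca-1. It had 30 and 66 counts in EV-RV and 331 and 633 counts in IRF4-RV (0.899 and 2.09 against 9.77 and 17.4 CPM), with a log2 fold change of 3.19 (SE 0.389). The value was 3.91 without EV-RV replicate 2, and the other libraries left out in turn gave 2.69 to 3.53. The groups did not overlap, but each replicate 2 was well above its replicate 1. Replicate 2 exceeded replicate 1 by 2.33 times in EV-RV and by 1.78 times in IRF4-RV. A test of replicate number with group in the model, which the choice of these genes did not use and which was run after these values had been seen, called 9.91% of all tested genes at an FDR of 0.1. Ly6a was among them (log2 difference 0.93, SE 0.169, adjusted p = 5.63e-06 with edgeR), and the other 5 tested members were not, with adjusted p from 0.611 to 0.999.

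Fibroblast genes moved with replicate number in the same direction. Sca-1 is also a known antigen of mesenchymal cells, and transcripts of the collagen chains Col1a1 and Col1a2, of the chemokine Cxcl12 and of the receptor Pdgfra were present although the line is lymphoid. Col1a2 had 655 and 1108 counts in EV-RV and 590 and 3154 counts in IRF4-RV. The 4 genes summed to 41.5 and 77.1 CPM in EV-RV and to 39.7 and 189 CPM in IRF4-RV, so that replicate 2 was 1.86 and 4.75 times replicate 1. They were picked after their values were seen from a list of 7 stroma and endothelium markers, which summed to between 69.8 and 101 CPM in EV-RV and between 187 and 313 CPM in IRF4-RV. None of the 7 was at 0 in all libraries, although the endothelial genes Cdh5 and Kdr had at most 3 counts. All 5 tested markers of the list were called for replicate number, the 4 fibroblast genes higher in replicate 2 and the endothelial and leukocyte gene Pecam1 lower in it (log2 difference -0.23, SE 0.0698, adjusted p = 0.0175 with edgeR). For group, Pecam1 was the 1 marker called, at 28.2 and 24.3 CPM in EV-RV and 146.9 and 123.8 CPM in IRF4-RV. The sum of the 7 markers includes this rise. In the replicate 1 libraries, where the 4 fibroblast genes stood at 0.957 times the EV-RV level in IRF4-RV, Ly6a was 10.9 times as high in IRF4-RV. In the replicate 2 libraries, where they stood at 2.45 times, Ly6a was 8.31 times as high. Their part in the difference between replicates was not tested.

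**Figure D2:**
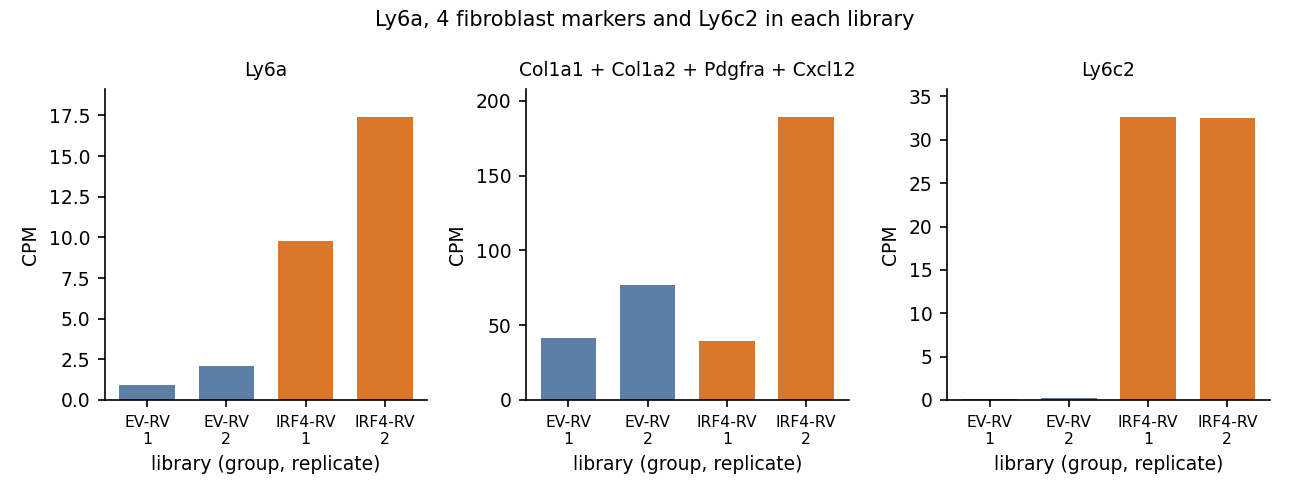
CPM in each of the 4 libraries for Ly6a, for the sum of Col1a1, Col1a2, Pdgfra and Cxcl12, and for Ly6c2, with bars from 0. Ly6a and the fibroblast genes are both higher in replicate 2, whereas Ly6c2 is at 32.6 CPM in both IRF4-RV libraries and the fibroblast genes are level between the replicate 1 libraries at 41.5 and 39.7 CPM.

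Ly6g and Ly6i appeared at low levels. Ly6g, the antigen that defines neutrophils, had 1 and 0 counts in EV-RV and 71 and 58 counts in IRF4-RV. Its ratio of 119 has an interval of 21 to 4740, because it rests on 1 count in EV-RV. Ly6i, a relative of Ly6a, had 1 and 1 counts in EV-RV and 10 and 13 counts in IRF4-RV, a ratio of 10.6 with an interval of 2.62 to 92.9. It was too low to be tested. Ly6k, known from sperm, had 0 counts in all 4 libraries, which allows up to 3 counts in each. It overlaps an antisense gene, Gm17189, over 395 exon bases.

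Of the 8 members, 6 passed the filter on low counts, and 3 (Ly6d, Ly6e and Ly6a) would have passed on the EV-RV libraries alone. The other 3, Ly6c1, Ly6c2 and Ly6g, passed only through their IRF4-RV counts. All 6 were called higher, against 16% of all tested genes, and their choice rests on the same difference. Levels were also taken per kilobase of exon, with exons joined over all annotated transcripts of a gene. The order in EV-RV was Ly6e at 168.4, Ly6a at 1.24 and Ly6d at 0.789 CPM per kb. The other members were at 0.121 or below in EV-RV. Ly6a and Ly6d did not differ there beyond their spread, since 1 Ly6a library was near the Ly6d level. In IRF4-RV the order was Ly6e at 281.1, Ly6d at 36.1, Ly6c2 at 11.9 and Ly6a at 11.3, followed by Ly6g at 1.96, Ly6c1 at 1.44 and Ly6i at 0.282 CPM per kb. On this scale Ly6c2 lay between the Ly6a libraries, while the libraries of Ly6g and Ly6c1 did not overlap. The joined exons of Ly6c2 and Ly6a hold 2740 and 1205 bases, whereas 1 coding transcript of each has 822 and 819 bases. The order below Ly6e in IRF4-RV can therefore change with the length used.

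**Figure D3:**
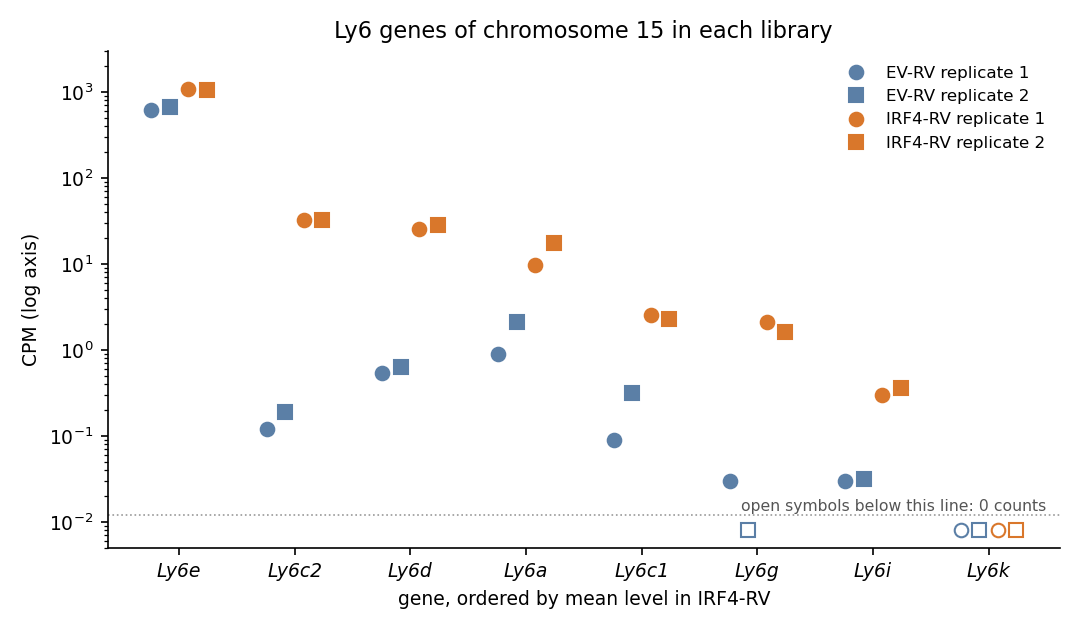
CPM on a log axis in each library for the 8 Ly6 genes, with blue for EV-RV, orange for IRF4-RV, circles for replicate 1 and squares for replicate 2. Open symbols under the dotted line are libraries with 0 counts. Every member with counts is higher in both IRF4-RV libraries, from Ly6e (616.7 to 658 against 1047 to 1080 CPM) to Ly6i (1 count against 10 and 13). The same held for 31.3% of all tested genes, and the members were chosen with this difference known. Ly6k is at 0 throughout.

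Of the other Ly6-type genes of the cluster, 13 were in the table, 3 were tested and all 3 were called higher. None of these 3 would have passed the filter on the EV-RV libraries alone: they entered the test through their IRF4-RV counts, so the count of calls is no support for a direction of the list. Lynx1, a modulator of nicotinic acetylcholine receptors, had 8 and 15 counts in EV-RV and 87 and 74 counts in IRF4-RV (log2 fold change 2.68, SE 0.401, adjusted p = 0.00271 with edgeR). Ly6a2, annotated as a transcribed pseudogene in GENCODE M21, had 0 and 0 counts in EV-RV and 56 and 60 counts in IRF4-RV. Against 3 counts over the EV-RV group, it was 35.7-fold higher in IRF4-RV (adjusted p = 0.000581 with edgeR). The 95% counting interval of its ratio began at 28.6. Of its stretches of 75 bases, 1.24% occurred exactly in another gene. Ly6m had 5 and 7 counts in EV-RV and 16 and 25 counts in IRF4-RV (log2 fold change 1.63, SE 0.537, adjusted p = 0.067 with edgeR). Its call was lost in 6 of 11 alternatives, with adjusted p from 0.067 to 0.381.

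The remaining 10 genes of that list stayed at or near 0. Psca, Slurp1, Gml, Gml2, Ly6f and Ly6h had at most 2 counts in any library. Lypd2, Slurp2, Ly6l and Gpihbp1 had none. Gpihbp1, which carries lipoprotein lipase across capillary endothelium, belongs to the same protein family. No difference was detectable for these genes at this depth.

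Position within the cluster was examined over a span of 1397 kb around the family. Between the first and the last member lie 17 other genes, of which 6 were tested, with 4 higher and 0 lower. Of those 4, Gm39556 alone would have passed the filter on the EV-RV libraries. Besides Ly6m and Ly6a2, these were Cyp11b2, an enzyme of aldosterone synthesis (3 and 1 against 49 and 57 counts, adjusted p = 0.00101 with edgeR), and Gm39556 (31 and 25 against 88 and 100 counts, adjusted p = 0.00463 with edgeR). Gm8000 and Gm28068 were tested but not called, with log2 fold changes of 0.33 and 0.74. Of 33 genes within 500 kb outside, 5 were tested, 1 of them higher (Lynx1) and 2 lower. The latter were Jrk (log2 fold change -0.67, adjusted p = 0.0309 with edgeR) and Them6 (-0.30, adjusted p = 0.0581 with edgeR), on the Ly6d side. On chromosome 15 as a whole, 94 of 551 tested genes were higher and 69 lower. Cyp11b2, Gm39556, Jrk and Them6 were named for their position after their values were seen.

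**Figure D4:**
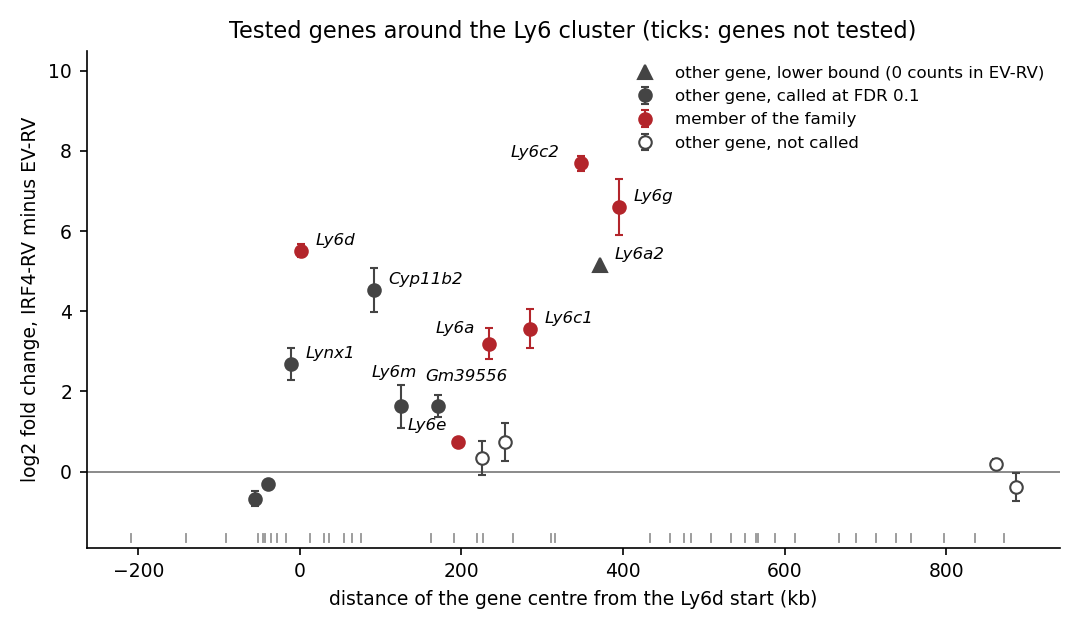
Log2 fold change of IRF4-RV over EV-RV with its SE against the distance in kb from the Ly6d start, for tested genes within 500 kb of the family. Red marks the members, filled dark symbols other called genes, open circles genes not called and ticks genes not tested. The triangle is a lower bound that takes 3 counts for EV-RV (Ly6a2, 35.7-fold). The tested genes between Ly6d and Ly6g lie above 0, with Ly6c2 highest at 7.69. The fitted value of Ly6g rests on 1 count in EV-RV, and Jrk and Them6 outside Ly6d lie below 0.

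Of 21 Ly6/uPAR genes on other chromosomes that are in the table, 5 were at 0 in all libraries, 14 had at most 13 counts in any library and 2 were tested. With edgeR, 0 were called, 0 had an unadjusted p under 0.05, and DESeq2 also called 0. Plaur, the urokinase receptor, had 27 and 22 counts in EV-RV and 43 and 44 counts in IRF4-RV (log2 fold change 0.71, adjusted p = 0.187 with edgeR). Ly6g5b had 9 and 14 against 9 and 12 counts. The CD59 genes, inhibitors of complement, had at most 3 counts in a library.

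Ly6 proteins depend on GPI anchors for their place in the membrane. All 29 listed genes of anchor assembly were tested, of which 4 rose, 1 fell and the rest were not called. The median log2 fold change was 0.06, against 0.01 for all tested genes. Of all tested genes, 16% were called higher and 13.7% lower, so this list was not called more often than genes in general. Pigv (0.53), Pgap3 (0.39), Pigt (0.24) and Pigs (0.20) rose, and Pigw fell by 0.62 on the log2 scale. Pigt and Pigs are parts of the transamidase that attaches the anchor to proteins, Pigv and Pigw act in building the anchor, and Pgap3 remodels it. Piga, which starts the pathway, had 560 and 496 counts in EV-RV and 561 and 602 counts in IRF4-RV. The number of calls in this list ran from 2 to 10 over the alternatives.

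Other GPI-anchored surface proteins gave a mixed picture. Of 20 genes, 13 were tested, 4 rose and 1 fell, with a median log2 fold change of 0.35. The shares over all tested genes were 16% called higher and 13.7% called lower. Cd48, a ligand of CD244 and CD2, had 10 and 7 counts in EV-RV and 113 and 118 counts in IRF4-RV. Its log2 fold change was 3.63 (adjusted p = 0.000217 with edgeR). Cd48 passed the filter only through its IRF4-RV counts, so its call is no support for a direction. Cd52, a lymphocyte antigen, rose by 1.51 and Bst2, an antiviral protein that tethers virions, by 1.11 on the log2 scale. Bst1 rose by 0.33. Gfra1, a receptor for GDNF, fell by 0.53. Cd24a, itself a marker of B-cell precursors, had between 52814 and 67110 counts, with a log2 fold change of 0.13 that was not called.

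Genes of interferon signalling were examined because several Ly6 genes are known to respond to it. Of 18 listed genes, 17 were tested, 11 rose and 1 fell, with a median log2 fold change of 0.69. Of all tested genes, 16% were called higher and 13.7% lower. The list was chosen with earlier results of these data known, so these values are a description. Usp18, a brake on the type I interferon receptor, had 49 and 51 counts in EV-RV and 2277 and 3023 counts in IRF4-RV (log2 fold change 5.60, adjusted p = 1.38e-06 with edgeR). Irf7 (1.93), Stat2 (1.88), Irf9 (1.72) and Irf1 (1.38) rose as well. Ifng, the type II interferon, had 0 and 0 counts in EV-RV and 29 and 35 counts in IRF4-RV. It passed the filter only through its IRF4-RV counts, so its call is no support for a direction. Against 3 counts over the EV-RV group, Ifng was 19.7-fold higher, and the 95% counting interval of its ratio began at 15.6. Ifnb1 had at most 3 counts in any library. Irf8 fell by 0.32. Whether the higher Ly6 levels depended on interferon was not tested.

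**Figure D5:**
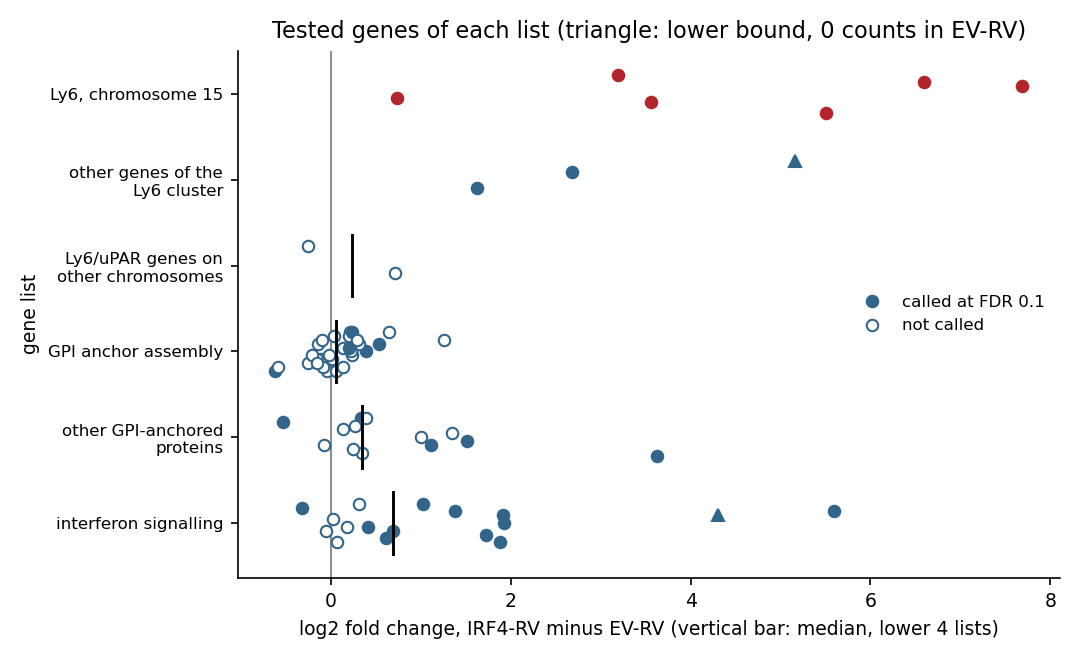
Log2 fold change of IRF4-RV over EV-RV for the tested genes of 6 lists, with filled symbols for genes called at an FDR of 0.1. Open circles mark the rest, and triangles mark lower bounds that take 3 counts for EV-RV. A vertical bar marks the median of the lower 4 lists. The GPI anchor genes lie around 0 with a median of 0.06 and interferon signalling genes have a median of 0.69. No median is drawn for the Ly6 genes, whose choice rests on this difference, or for the other cluster genes, which entered through their IRF4-RV counts.

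The genes whose pattern over the 4 libraries lay nearest to that of Ly6e and Ly6c2 were found by Euclidean distance of centred log2 CPM. For Ly6c2 they included Iigp1, Tent5c, Rsad2 and Cybb, at distances of 0.538 to 0.826. Iigp1, an interferon-inducible GTPase, went from a mean of 0.0467 to 11.5 CPM, and Rsad2, the antiviral protein viperin, from 0.184 to 24.7 CPM. For Ly6e the nearest were Pxmp4, Dcaf6, Ap1s3, Dnajc10 and Tmbim6, at distances of 0.0176 to 0.0422 and log2 fold changes of 0.70 to 0.76. With 4 libraries in 2 groups, such likeness mostly reflects a similar fold change.

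The surface antigens of this family are used to define other blood cells, so markers of those cells were read in the same libraries. Over all tested genes, 16% were called higher and 13.7% lower. Of 15 granulocyte markers, which summed to between 1.32 and 1.55 CPM in EV-RV and between 1.89 and 3.21 CPM in IRF4-RV, 6 were at 0 in all libraries, among them S100a8, S100a9 and Camp. Elane and Mpo had at most 2 counts in a library. Lcn2, with 1 and 5 against 39 and 75 counts, was the 1 granulocyte marker called higher. Lcn2, like Prdm1 and Procr of the lists below, passed the filter only through its IRF4-RV counts. These calls are no support for a direction. Of 15 monocyte and macrophage markers, which summed to between 6.91 and 7.7 CPM in EV-RV and between 10.3 and 12.1 CPM in IRF4-RV, 4 were at 0, namely Adgre1, Cx3cr1, Cd163 and Marco. Lyz2 and Itgam had at most 2 counts in a library, Mrc1 rose (log2 fold change 3.26) and Ccr2 fell by 0.70. Of 13 T and NK cell markers, which summed to between 20.7 and 21.1 CPM in EV-RV and between 13.4 and 13.8 CPM in IRF4-RV, 5 were at 0, and none was called higher. Of 9 stem and progenitor markers, which summed to between 0.825 and 1.02 CPM in EV-RV and between 3.78 and 4.39 CPM in IRF4-RV, none was at 0 throughout, Kit and Cd34 had at most 6 counts, and Flt3 and Procr rose. Of 8 plasma cell markers, which summed to between 241 and 263 CPM in EV-RV and between 423 and 441 CPM in IRF4-RV, 4 rose, Slamf7 (1.67) and Prdm1 (2.13) among them, and Sdc1 fell by 0.81. The B progenitor list of 13 genes summed to between 4330 and 4560 CPM in EV-RV and between 3090 and 3120 CPM in IRF4-RV, with 1 gene higher and 5 lower, the surrogate light chain genes Vpreb1 and Igll1 among the latter.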

How the data were processed

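Bulk RNA-seq of 4 libraries was analysed, grouped as EV-RV and IRF4-RV by the sample titles. The protocol labels name T11 cells where the titles and tissue name T8, which was used. The raw counts per gene that the authors deposited came from STAR 2.4.0j alignments to GRCm38, counted by featureCounts. Whether strand was used and how multi-mapping reads were treated is not given in the sources used here. Of 55359 identifiers, 52083 matched GENCODE M21 and 3276 did not. They held 0.203% to 0.486% of the counts of a library.

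Genes passing filterByExpr were tested with edgeR 4.0.16 in R 4.3.3 (TMM, quasi-likelihood F test, Benjamini-Hochberg, FDR 0.1, the cutoff of the study), with no replicate block, as the study names none. SE is the absolute log2 fold change, or log2 difference, divided by the square root of its F statistic, so it was derived from the test. DESeq2 1.42.0 served as an alternative. The fits were tested on simulated data. Replicates in a group differed by more than sampling noise. Members and gene lists were chosen with earlier results of these data known. Named genes are all members, the cluster genes with counts, at most 4 called genes of each other list with the largest change plus 1 in the other direction, the genes nearest to Ly6e and Ly6c2, and Irf4. Coding bases were aligned globally with Biopython. Some genes that this rule names are not reported here.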

Additional observations from a re-analysis of the deposited data

How the results depend on the processing

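The direction of the 6 tested members was the same under all alternatives, and none lost its call where all 4 libraries were kept. The members were chosen with this difference known, so this describes the fits and is no support for a direction. Their log2 fold changes ran from 5.39 to 5.63 for Ly6d, 0.65 to 0.79 for Ly6e, 2.69 to 3.91 for Ly6a, 2.90 to 4.69 for Ly6c1, 7.38 to 8.04 for Ly6c2 and 5.78 to 8.97 for Ly6g. Between 5 and 7 members were called, 5 where Ly6c1 and Ly6c2 were summed and 7 where Ly6i entered, with every gene with a count tested or without IRF4-RV replicate 1. Calls over all genes numbered 4349, and 3596 with DESeq2, 3347 at an FDR of 0.05, and 3573 to 3646 with a library left out. GPI anchor genes called numbered 5, and 3 with DESeq2 or at an FDR of 0.05, and 2 to 5 with a library left out (2 without EV-RV replicate 1 or IRF4-RV replicate 1, 3 without IRF4-RV replicate 2). Other GPI-anchored genes called numbered 5, and 5 to 8 with a library left out, 8 without IRF4-RV replicate 1. The cause was not tested. Ly6m lost its call with DESeq2, at an FDR of 0.05 and without any of the libraries. With the replicate number as a block, 6394 genes were called, 10 of them GPI anchor genes, 8 other GPI-anchored genes and 14 interferon genes. The 6 members and the 3 cluster neighbours were called there too. Nothing in the labels says that equal numbers pair samples, and deviations of same-numbered libraries correlated with r = 0.284 over 14637 genes, which are not independent. With 2 libraries per group, the spread is estimated from few values, and genes with under 3 counts in EV-RV have no precise fold.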
